A study of Saccharomyces cerevisiae with 8 samples.

Results

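Stable unannotated transcripts (SUTs) are noncoding RNAs of budding yeast, numbered in a genome-wide catalogue that also lists the cryptic unstable transcripts (CUTs). They were taken here as the features whose name starts with SUT and that had at least 10 counts over all libraries. Of 847 SUT features 664 met this minimum, among 7660 features of all kinds, while 82 SUTs had 0 counts in every library and 101 had 1 to 9. The limit is not sharp: 12 SUTs had a total of exactly 10, such as SUT465 with all 10 in a single 30 min library and SUT290 with all 10 in a single 0 min library. Just outside lay SUT274, with 9 counts over 4 libraries, and another 10 SUTs with 8 counts.

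SUTs are made by RNA polymerase II, mostly from nucleosome-free regions that they share with a neighbouring gene, or antisense to genes. They carry a cap and a poly(A) tail and last long enough to be seen in wild-type cells, whereas CUTs are ended early by the Nrd1, Nab3 and Sen1 proteins and are degraded by the nuclear exosome. Nab2 is a nuclear protein that binds poly(A) tails and accompanies mRNA to export.

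RNA was counted in 8 libraries, 2 biological replicates in each of 4 groups, from cells grown in YPAD at 30 °C. The Nab2 anchor-away strain Y3284 carries NAB2-FRB::HIS and was treated with rapamycin at 1 µg/ml for 15 or 30 min, or left untreated (0 min). The control strain Y2615, labelled MATa and without the FRB tag, was treated with the same dose for 30 min. Both strains carry the tor1-1 allele, the deletion fpr1::loxPLEU2-LoxP and the anchor RPL13A-2xFKBP12::LoxP-TRP1-LoxP, so that rapamycin ties an FRB-tagged protein to a ribosomal protein that leaves the nucleus. The 4 libraries at 15 and 30 min are called anchored below, and the 4 at 0 min and in the control unanchored. The mating type of Y3284 is not given beyond MAT. Markers of alpha cells (all 4 listed genes found) summed to between 983 and 2413 CPM, counts relative to the scaled library total, in its 6 libraries, against 49.2 and 52.2 CPM in the control. Markers of a cells (6 of 7 found) summed to between 11.3 and 40.6 CPM in Y3284, against 304 and 357 CPM in the control. Comparisons with the control therefore also compare cells with different mating type markers, and the tag and the mating type cannot be told apart in them.

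Most SUTs could not be shown as sequence, because the count table gives no coordinates and the RefSeq annotation of build R64 names only 9 of them. Of these 9, 8 were members, between 305 and 1441 bases long. The first 200 bases of 4 are shown, because these 4 had enough counts to be tested for change and include a sense and antisense pair. SUT053, at chrIV:506334-507774 on the plus strand, holds the whole of SUT468, at chrIV:506546-507450 on the minus strand, so that 62.8% of SUT053 is transcribed from both strands. SUT126 lies at chrVII:660087-661399 on the plus strand. SUT169, at chrVIII:378254-379237 on the plus strand, runs antisense to SPS100, a gene of spore wall maturation, over 946 bases or 96.1% of its length. Capitals mark GTAG, a motif bound by Nrd1, and TCTTG, a motif bound by Nab3, and each sequence starts at the annotated 5′ end.
SUT053: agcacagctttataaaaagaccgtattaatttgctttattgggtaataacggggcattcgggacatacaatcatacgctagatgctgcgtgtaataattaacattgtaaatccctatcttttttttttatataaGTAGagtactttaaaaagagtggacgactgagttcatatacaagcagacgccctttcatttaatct
SUT468: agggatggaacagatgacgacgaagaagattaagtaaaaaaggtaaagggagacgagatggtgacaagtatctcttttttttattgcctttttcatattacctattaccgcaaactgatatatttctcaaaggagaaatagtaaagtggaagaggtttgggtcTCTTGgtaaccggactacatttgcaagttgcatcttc
SUT126: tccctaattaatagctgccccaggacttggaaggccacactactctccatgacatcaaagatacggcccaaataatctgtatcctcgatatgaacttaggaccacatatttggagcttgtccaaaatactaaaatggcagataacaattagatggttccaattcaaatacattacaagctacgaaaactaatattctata
SUT169: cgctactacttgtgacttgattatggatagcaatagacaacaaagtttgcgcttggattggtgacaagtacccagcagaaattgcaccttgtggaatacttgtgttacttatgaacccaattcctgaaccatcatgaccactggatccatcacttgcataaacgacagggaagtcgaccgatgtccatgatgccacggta

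On the transcribed strand GTAG stood in the first 200 bases of 2 of the 8 members named by RefSeq, SUT053 and SUT418, and TCTTG in 1 of them, SUT468. For scale, the first 200 bases of 5868 coding genes held GTAG in 34.2% and TCTTG in 13.3% of cases on the transcribed strand, and in 68.0% and 51.0% on either strand. The gene windows start at the annotated open reading frame and the SUT windows at the transcript 5′ end, so the stretches are unlike. A match of 4 or 5 letters is a description of the sequence and not a binding site.

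The level of SUTs was low. Averaged over the 8 libraries, a member's level ran from 0.0753 to 46.0 CPM with a median of 2.26, and 76 of 664 members reached 10 CPM. The 8 with the highest mean were SUT802 with 46.0, SUT445 with 42.6, SUT350 with 41.6, SUT098 with 39.1, SUT017 with 38.4, SUT198 with 33.2, and SUT514 and SUT307 with 31.4 CPM each. Of these 8, SUT445, SUT017, SUT198 and SUT307 passed a test described below, while the other 4 passed none. SUT350 had 39.0 and 48.3 CPM at 15 min and 35.5 and 44.5 CPM at 30 min, against 44.1 and 35.7 CPM at 0 min and 43.4 and 42.8 CPM in the control. Its anchored and unanchored libraries overlapped throughout, and its log2 fold change of 0.01 ± 0.31 (SE) had an edgeR adjusted p = 0.995. SUT802 was spread more widely, from 28.4 CPM in control replicate 1 to 56.2 CPM in 30 min replicate 1, and its log2 fold change, 0.20 ± 0.31, did not pass (edgeR adjusted p = 0.780).

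Length could be taken into account for the 8 members that RefSeq places. Per kilobase of transcript the highest mean levels among them were 4.17 CPM for SUT169, 3.34 for SUT126, 1.92 for SUT468 and 1.36 for SUT532. SUT169 had 9 and 38 counts at 15 min and 81 and 0 counts at 30 min, against 77 and 84 counts at 0 min and 36 and 47 counts in control cells. The 9 and the 0 both came from libraries of low complexity, which are described next. SUT468 had 58 and 7 counts at 15 min and 36 and 6 counts at 30 min, against 0 and 31 counts at 0 min and 0 counts in both control libraries. SUT053, on the other strand of the same stretch, had 0 and 8 counts at 15 min and 33 and 7 counts at 30 min, against 7 and 22 counts at 0 min and 0 and 2 counts in control cells. Both overlapped between anchored and unanchored libraries, and the log2 fold change of SUT468, 4.76 ± 2.20, did not pass (edgeR adjusted p = 0.220). SUT126 was read in every library, with 106 and 29 counts at 15 min and 35 and 5 counts at 30 min, against 43 and 38 counts at 0 min and 62 and 21 counts in control cells. None of these 4 passed any test.

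Total counts ranged from 4832948 to 17023022 per library. Replicate 1 at 15 min, replicate 2 at 30 min and replicate 1 of the control are called libraries of low complexity, 1 in each group after rapamycin. They had 0 counts for 24.4% to 28.2% of all features, against 9.18% to 15.4% for the remaining 5 libraries. The gap was wider for SUTs, of which 42.8%, 52.6% and 51.5% were at 0 in those 3 libraries, against 3.16% to 12.5% in the remaining 5. In all, 147 members were at 0 in each of the 3 libraries, and 166 of 664 were read in all 8. The pattern followed the level: in 30 min replicate 2, 76.3% of the 169 lowest tested SUTs were at 0, 40.8% of the middle 169 and 7.69% of the highest 169.

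SUTs took a larger share of the counts in every anchored library than in any unanchored one. The share was 0.319% and 0.297% at 15 min and 0.449% and 0.378% at 30 min, against 0.229% and 0.252% at 0 min and 0.245% and 0.221% in control cells. The exact 95% binomial intervals of the lowest anchored share (0.293% to 0.300%) and the highest unanchored share (0.249% to 0.254%) do not meet, and they cover counting error only. The 15 min mean was 0.308% ± 0.0156 and the 30 min mean 0.414% ± 0.0501, against 0.240% ± 0.0161 before rapamycin and 0.233% ± 0.0169 for control cells (SD, n = 2 each). The mean over anchored libraries, 0.361% ± 0.0684, was 1.52 times that over unanchored ones, 0.237% ± 0.0141 (SD, n = 4 each), and 1.59 times without the 3 libraries of low complexity. This ratio is given as a description with no p. A share of the counts cannot tell more cells with the RNA from more RNA per cell, nor a gain of SUTs from a loss of mRNA.

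**Figure D1:**
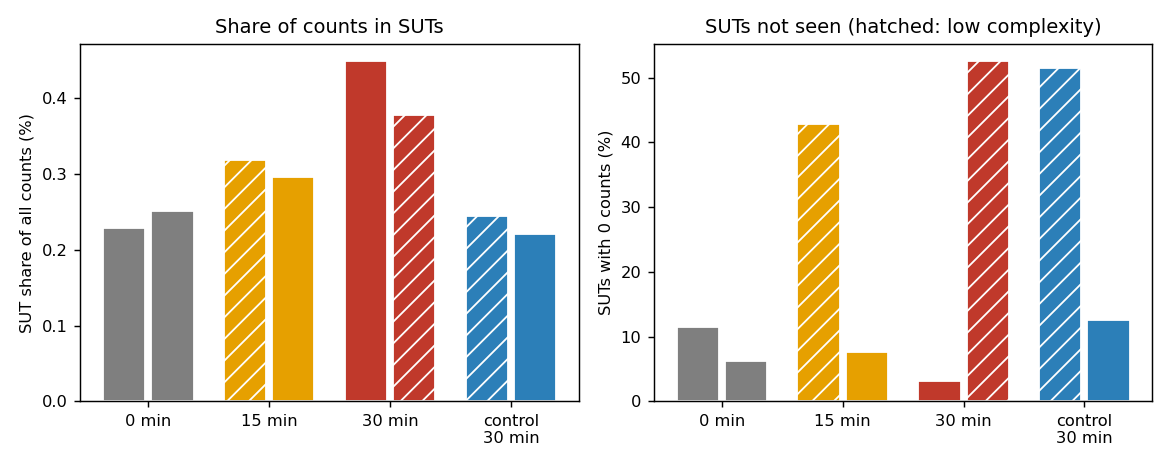
Share of all counts in the 664 SUTs (left, %) and share of SUTs with 0 counts (right, %), 1 bar per library in 4 groups, with libraries of low complexity hatched. The 4 anchored libraries lie between 0.297% and 0.449%, above the 4 unanchored ones, while the share at 0 is highest in the 3 hatched libraries, from 42.8% to 52.6%.

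The added signal can also be given as a sum of levels. Summed over members, the mean level was 3454 CPM in anchored libraries and 2443 CPM in unanchored ones, a difference of 1011 CPM. The 8 SUTs that rose by the test below, of 664 members, made up 303 CPM or 29.9% of that net difference. How widely the remainder was spread over members was not tested. The mean was higher in anchored than in unanchored libraries for 436 members and lower for 228, and no such count was made over all features. Some members reached the minimum of 10 counts through anchored libraries alone, such as SUT465, or unanchored ones alone, such as SUT290. Their direction was set by the minimum, so this count is no support for a gain of the class. For each SUT count there were 0.394 and 0.397 CUT counts at 15 min and 0.431 and 0.440 at 30 min, against 0.247 and 0.233 at 0 min and 0.172 and 0.257 for control cells. This CUT to SUT ratio averaged 0.416 ± 0.0234 in anchored and 0.227 ± 0.0380 in unanchored libraries (SD, n = 4 each), with no overlap.

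Fold changes of single SUTs were estimated for 507 of the 664 members, those with enough counts, in a model of all 6191 features with enough counts. The median log2 fold change of the 507 SUTs, anchored over unanchored, was 0.44 (quartiles -0.44 and 1.44), with 330 above and 177 below 0. Of SUTs 65.1% were above 0, against 50.2% of all tested features. A SUT could have enough counts through anchored libraries alone, such as SUT819 below, or through unanchored ones alone. The split and the median are therefore a description and no support for a gain of the class. Over all tested features the median was 0.00, over 5215 transcripts of open reading frames (ORFs) -0.06 and over 323 CUTs 1.42. By comparison, the median of SUTs was 0.34 at 15 min over 0 min, against -0.06 for all features, and 0.41 at 30 min over 0 min, against -0.05. It was 0.59 at 30 min over control, against 0.06 for all features, and -0.35 in the control over 0 min, against -0.08. These comparisons share libraries and are not separate evidence.

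The medians rest on single libraries. Without 30 min replicate 1, which leaves a low-complexity library alone at 30 min, they were -0.60 for anchored over unanchored, -1.98 for 30 min over 0 min and -1.53 for 30 min over control. Those of all features were then -0.16, -0.28 and -0.20. Without 15 min replicate 2 the SUT medians were -0.07 for anchored over unanchored and -0.42 for 15 min over 0 min, against -0.06 and -0.13 for all features. Without control replicate 2 the SUT medians were 1.91 for anchored over unanchored, 3.69 for 30 min over control and -2.95 for control over 0 min. Those of all features were then 0.15, 0.27 and -0.20. Leaving out control replicate 1 turned the SUT median of the control over 0 min to 0.03, against -0.06 for all features. With all 3 libraries of low complexity left out, the SUT medians were 0.49 for anchored over unanchored, 0.33 at 15 min over 0 min, 0.73 at 30 min over 0 min, 0.61 at 30 min over control and 0.04 for control over 0 min. In the same order, those of all features were 0.01, -0.07, -0.02, 0.09 and -0.06. Scaling the libraries on snoRNA features moved the median of all features to -0.64 and that of SUTs to -0.17, anchored over unanchored, so that SUTs stood 0.46 above all features, against 0.44 with the scaling used here.

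**Figure D2:**
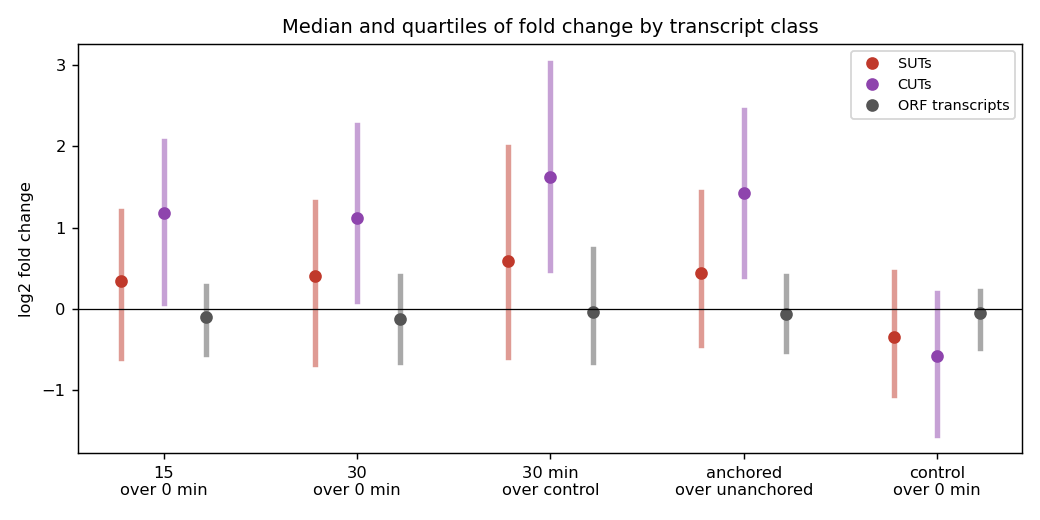
Median (points) and quartiles (bars) of the log2 fold change of 507 SUTs, 323 CUTs and 5215 ORF transcripts in 5 comparisons. The SUT medians lie between those of CUTs and ORF transcripts in all 5, from -0.35 in the control over 0 min to 0.59 at 30 min over control.

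In anchored over unanchored libraries 8 SUTs rose and 2 fell, 10 of 507 or 1.97%, while 6.95% of all tested features were called, 1.89% as rises and 5.06% as falls. The rises were SUT198, SUT307, SUT445, SUT017, SUT113, SUT498, SUT694 and SUT819, and the falls SUT645 and SUT721. The 1.58% of SUTs that rose was near this background. Without the 3 libraries of low complexity 21 SUTs were called, 17 of them rises, and 9 of the 10 were among them. The count was 5 without 0 min replicate 1 and 5 without 15 min replicate 1, 6 without control replicate 1, 20 without 30 min replicate 1 and 25 without control replicate 2. By level, 9 of the 10 stood among the 169 tested SUTs of highest level, with means from 5.32 to 46.0 CPM, 1 among the middle 169 and 0 among the lowest 169. Values of a SUT in all anchored libraries lay above all unanchored ones for 37 SUTs (7.30%, against 5.15% of all features) and below them for 7 (1.38%, against 8.88%). A SUT at 0 in any unanchored library could not be below, and one at 0 in any anchored library could not be above. Zeros were more frequent among SUTs than among all features, so these shares are not on equal terms.

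SUT198 changed most among SUTs at a high level. It had 53.0 and 38.1 CPM at 15 min and 45.0 and 121 CPM at 30 min, against 4.68 and 1.81 CPM at 0 min and 0.343 and 2.13 CPM in the control. All 4 anchored libraries lay far above all 4 unanchored ones. The log2 fold change was 4.93 ± 0.57 for anchored over unanchored (edgeR adjusted p = 0.000281). By its place among the identifiers SUT198 lies on the plus strand of chromosome X between YJL213W and PEX2, a peroxisomal ubiquitin ligase. The interval spans 3760 bases in R64 (chrX:33159-36918). Here and below, the genes named on either side are ORF features of the same strand. Genes on the other strand are not listed and may lie within the interval, so it need not be intergenic. Its call held in all 20 alternative settings of this comparison, with adjusted p up to 0.00804.

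SUT307 and SUT445 also kept the call in all 20 settings. SUT307 had 61.3 and 44.0 CPM at 15 min and 45.1 and 70.6 CPM at 30 min, against 3.79 and 7.77 CPM at 0 min and 15.0 and 3.59 CPM in the control. The groups do not overlap, and the log2 fold change was 2.91 ± 0.47 (edgeR adjusted p = 0.00144). SUT445 had 30.9 and 45.0 CPM at 15 min and 67.3 and 143 CPM at 30 min, against 11.8 and 12.4 CPM at 0 min and 9.95 and 20.4 CPM in the control. Its 30 min libraries were the highest of the 8, and the log2 fold change was 2.22 ± 0.37 (edgeR adjusted p = 0.00151). SUT307 falls between NCW1, which encodes a cell wall protein, and PKR1, an assembly factor of the vacuolar proton pump, on chromosome XIII (plus strand, chrXIII:511570-513592). SUT445 falls between CDS1, a CDP-diacylglycerol synthase, and HMT1, an arginine methyltransferase of nuclear RNA-binding proteins, on chromosome II (minus strand, chrII:297743-304929).

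Another 4 SUTs rose, and each was also read in every unanchored library, as were SUT198, SUT307 and SUT445. SUT017 had 70.4 and 57.9 CPM at 15 min and 94.8 and 32.3 CPM at 30 min, against 11.8 and 16.8 CPM at 0 min and 4.69 and 18.8 CPM in the control. Its log2 fold change was 2.30 ± 0.46 (edgeR adjusted p = 0.00590), and it lies between SND3, a factor of protein targeting to the endoplasmic reticulum, and AIM3 (chromosome II, plus strand, chrII:453225-454821). SUT113 had 41.2 and 21.1 CPM at 15 min and 26.6 and 5.22 CPM at 30 min, against 2.47 and 2.71 CPM at 0 min and 1.72 and 3.14 CPM in the control. Anchored libraries were higher throughout, the log2 fold change was 3.15 ± 0.70 (edgeR adjusted p = 0.0107), and 15 min replicate 1 held the highest value. Without that library the adjusted p was 0.0950. SUT113 lies between ARC1, a cofactor of aminoacyl-tRNA synthetases, and RPL28, a ribosomal protein gene (chromosome VII, plus strand, chrVII:308568-310966).

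SUT498 had 32.9 and 25.3 CPM at 15 min and 24.5 and 58.2 CPM at 30 min, against 7.33 and 9.88 CPM at 0 min and 2.63 and 11.5 CPM in the control. The groups were apart, the log2 fold change was 2.15 ± 0.53 (edgeR adjusted p = 0.0196), and the call was lost in 5 of 20 settings. One of these, without the 3 libraries of low complexity, gave a log2 fold change of 1.31. SUT694 had 62.3 and 34.4 CPM at 15 min and 42.8 and 39.5 CPM at 30 min, against 14.7 and 15.4 CPM at 0 min and 15.7 and 19.2 CPM in the control. This was the smallest of the 8 rises, at 1.46 ± 0.37 (edgeR adjusted p = 0.0237), and the call was lost in 6 of 20 settings, with 0.84 under scaling on snoRNA features. SUT498 stands between HSP31, a glyoxalase of the DJ-1 family, and IRC4 on chromosome IV, in a wide interval (minus strand, chrIV:1502161-1517135). SUT694 stands between ALT1, an alanine transaminase, and NYV1, a vacuolar SNARE, on chromosome XII (minus strand, chrXII:320016-326512).

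SUT819 was all but unread without anchoring. It had 10 and 58 counts at 15 min and 104 and 59 counts at 30 min, against 2 and 4 counts at 0 min and 0 and 1 counts in control cells. Scaled by library totals, the 231 anchored counts were 51.2 times the 7 unanchored ones, with a 95% interval of 24.5 to 129 that covers counting error only. Its log2 fold change was 5.92 ± 1.66 (edgeR adjusted p = 0.0380), and 8 of 20 settings lost the call. With 7 unanchored counts, SUT819 met the minimum of 10 counts and the filter for testing only through the anchored libraries. Its direction was thus set by its selection, and its fold change and p are no support for a gain. SUT819 lies between PHO85, a cyclin-dependent kinase, and SKS1, a protein kinase, on chromosome XVI (minus strand, chrXVI:493038-500674).

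Both falls were largest at 30 min. SUT645 had 30.1 and 25.0 CPM at 15 min and 8.48 and 0.967 CPM at 30 min, against 37.3 and 22.9 CPM at 0 min and 68.4 and 43.9 CPM in the control. The 15 min libraries lay within the range of 0 min, and the groups of 4 overlap. The log2 fold change was -1.82 ± 0.50 for anchored over unanchored (edgeR adjusted p = 0.0356), and 9 of 20 settings lost the call. SUT721 had 4.92 and 8.15 CPM at 15 min and 1.71 and 0 CPM at 30 min, against 16.6 and 11.4 CPM at 0 min and 24.9 and 23.4 CPM in the control. Here all anchored libraries lay below all unanchored ones, the log2 fold change was -2.89 ± 0.81 (edgeR adjusted p = 0.0381), and the call was lost in 8 of 20 settings. The 0 came from the low-complexity library of 30 min. SUT645 lies on the minus strand of chromosome X, with SOD1, the copper-zinc superoxide dismutase, as the gene after it. SUT721 lies between GIS4 and GLO1, a glyoxalase, on chromosome XIII (minus strand, chrXIII:258417-261704).

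**Figure D3:**
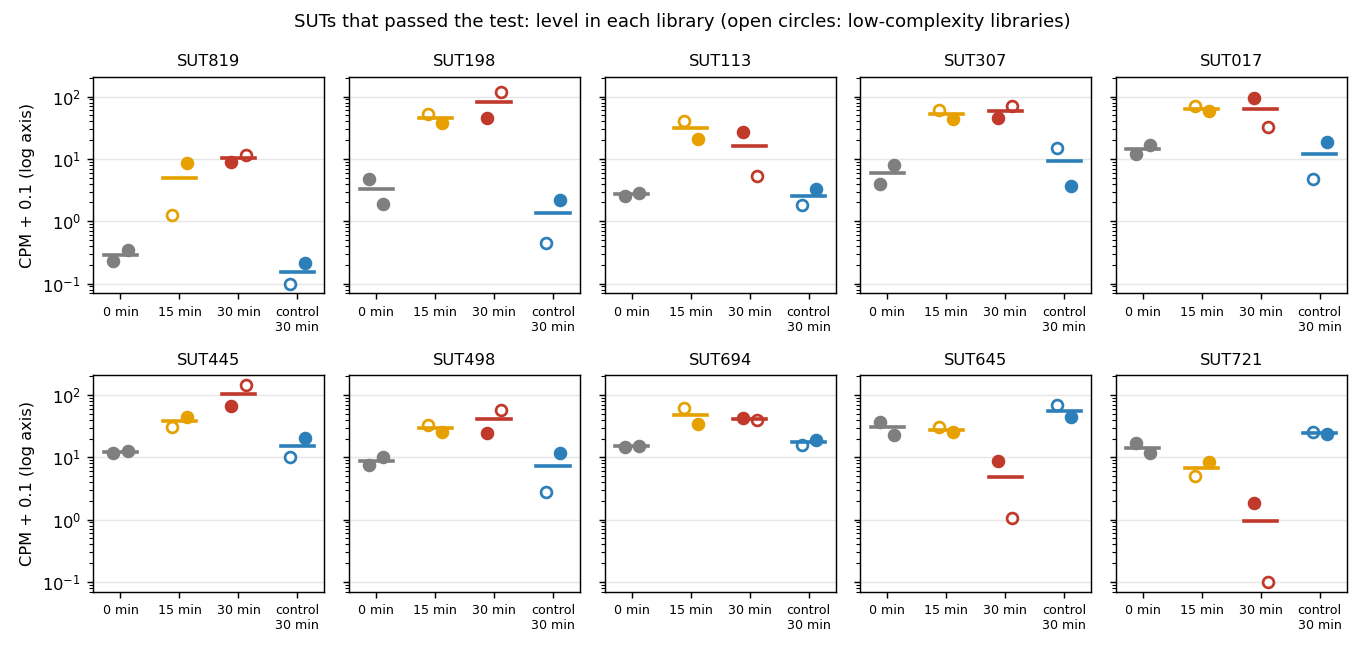
Level (CPM + 0.1, log axis) in each library of the 10 SUTs that passed anchored over unanchored, in 4 groups, with bars at group means and open circles for the 3 libraries of low complexity. SUT198 lies at 38.1 CPM or more in the 4 anchored libraries and at 4.68 CPM or less in the other 4, while SUT645 and SUT721 are lowest at 30 min.

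**Figure D4:**
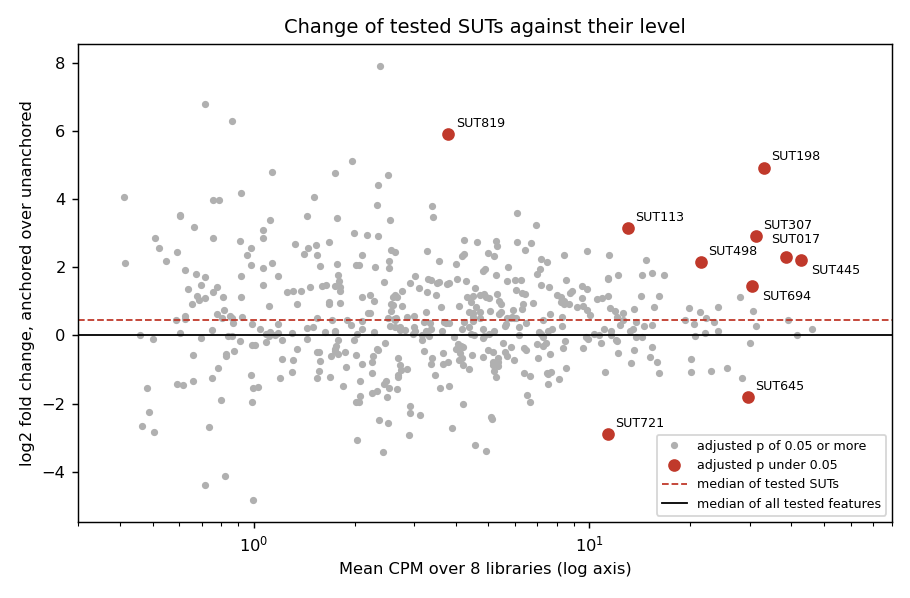
Log2 fold change, anchored over unanchored, against mean CPM over 8 libraries (log axis) for the 507 tested SUTs, with the 10 that passed in red and lines at the median of SUTs (0.44) and of all tested features (0.00). Among SUTs below about 10 CPM only SUT819 passed, although the spread of fold changes is widest there.

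At 30 min over control, the comparison of the tagged with the untagged strain after the same treatment, 6 SUTs were called (1.18%), 4 rises and 2 falls, while 6.07% of all features were called, 1.31% as rises and 4.76% as falls. The rises were SUT198 at 6.05 ± 0.86 (edgeR adjusted p = 0.000769), SUT445 at 2.79 ± 0.53 (edgeR adjusted p = 0.00432), SUT307 at 2.64 ± 0.66 (edgeR adjusted p = 0.0235) and SUT017 at 2.44 ± 0.65 (edgeR adjusted p = 0.0334). SUT645 fell by 3.51 ± 0.76 log2 units (edgeR adjusted p = 0.00993) and SUT721 by 4.67 ± 1.25 (edgeR adjusted p = 0.0320). All 6 are also in the comparison of anchored with unanchored libraries, which holds the same libraries. For SUT198 the counts, 1149 at 30 min against 22 in the control, stood in a scaled ratio of 54.8 (95% counting interval 36.0 to 87.8). SUT198 kept its call in all 20 settings. Among the other rises, SUT445 lost its call in 2 settings, at 1.70 without the 3 libraries of low complexity, and SUT307 in 4, at 2.26 without 30 min replicate 2 and 2.00 without control replicate 2. SUT017 lost it in 5, at 1.46 without 30 min replicate 1, 1.75 without control replicate 1 and 2.53 without either 15 min library. Of the falls, SUT645 lost its call in 3 settings, at -3.18 without control replicate 1, and stood at -5.84 without 30 min replicate 1. SUT721 lost it in 6, at -4.65 without control replicate 1 and -4.64 without control replicate 2. Without 30 min replicate 1 only the library with 0 counts of SUT721 is left at 30 min, so the fitted value of -10.93 depends on the prior count and is no bound. The number called was 18 without 30 min replicate 1, 3 without control replicate 1 and 19 without control replicate 2. In this comparison 126 SUTs had both 30 min libraries above both control libraries (24.9%, against 22.9% of all features), and 52 had both below (10.3%, against 24.2%). The 205 tested SUTs at 0 in control replicate 1 could not be below, and the 211 at 0 in 30 min replicate 2 could not be above. Zeros were more frequent among SUTs than among all features, so these shares are not on equal terms.

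Within the anchor-away strain, where mating type is shared, 3 SUTs rose at 30 min over 0 min and 0 fell, 0.592% of those tested, while 2.76% of all features were called, 0.501% as rises and 2.26% as falls. They were SUT198 at 4.67 ± 0.78 and SUT445 at 3.12 ± 0.54 (edgeR adjusted p = 0.00498 for each), and SUT307 at 3.32 ± 0.68 (edgeR adjusted p = 0.0123). Without the 3 libraries of low complexity 9 were called, 8 of them rises, including all 3. The number was 12 without 30 min replicate 1 and 5 without 30 min replicate 2. For SUT645 the log2 fold change was -2.61 ± 0.73 (edgeR adjusted p = 0.0692) and for SUT721 -3.89 ± 1.21 (edgeR adjusted p = 0.0992), neither of which passed.

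At 15 min over 0 min edgeR called 0 SUTs, with 11 at an unadjusted p under 0.05 (against 6.83% of all features), while DESeq2 called 3 and limma-voom 2, and 0.162% of all features were called. SUT198 and SUT307 came nearest among the named SUTs, at 3.81 ± 0.75 (edgeR adjusted p = 0.0642) and 3.18 ± 0.68 (edgeR adjusted p = 0.0737). Both were already at 38.1 CPM or more at 15 min. Leaving out single libraries gave between 0 and 3 calls, with 1 without 0 min replicate 1 or 30 min replicate 1, 2 without 0 min replicate 2 or either control, and 3 without 30 min replicate 2. Between 30 and 15 min edgeR called 0 SUTs as well, with a smallest edgeR adjusted p of 0.160, while 0.452% of all features were called. SUT445 had 67.3 and 143 CPM at 30 min, against 30.9 and 45.0 CPM at 15 min, and SUT645 had 8.48 and 0.967 CPM at 30 min, against 30.1 and 25.0 CPM at 15 min.

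The control over 0 min sets 2 groups without anchoring side by side, which differ in strain and in rapamycin. Here edgeR called 0 SUTs, with 1 at an unadjusted p under 0.05 (0.197%, against 1.78% of all features). DESeq2 and limma-voom also called 0. Of all features 0.0808% were called. For the 10 named SUTs the log2 fold changes ran from -1.52 for SUT819 to 0.90 for SUT645.

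The genes on either side of the named SUTs on the same strand did not move as a block with them. Of 20 such genes 6 were called in anchored over unanchored libraries, 2 rises and 4 falls, while 6.95% of all features were called, 1.89% as rises and 5.06% as falls. Of the 6 called, 3 moved in the direction of their SUT. Beside the rising SUT307 both genes fell, NCW1 by 1.05 ± 0.19 (edgeR adjusted p = 0.00311) and PKR1 by 1.41 ± 0.27 log2 units (edgeR adjusted p = 0.00394). Both also fell at 30 min over 0 min, within the same strain. AIM3, after SUT017, rose by 0.92 ± 0.25 (edgeR adjusted p = 0.0355). SKS1, before SUT819, rose by 1.31 ± 0.32 (edgeR adjusted p = 0.0180), and PHO85, after it, fell by 1.24 ± 0.32 log2 units (edgeR adjusted p = 0.0246). SOD1, after the falling SUT645, fell by 0.82 ± 0.19 log2 units (edgeR adjusted p = 0.0128). Neither gene beside SUT198 passed, with YJL213W at 0.79 ± 0.37 and PEX2 at -0.11 ± 0.32.

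**Figure D5:**
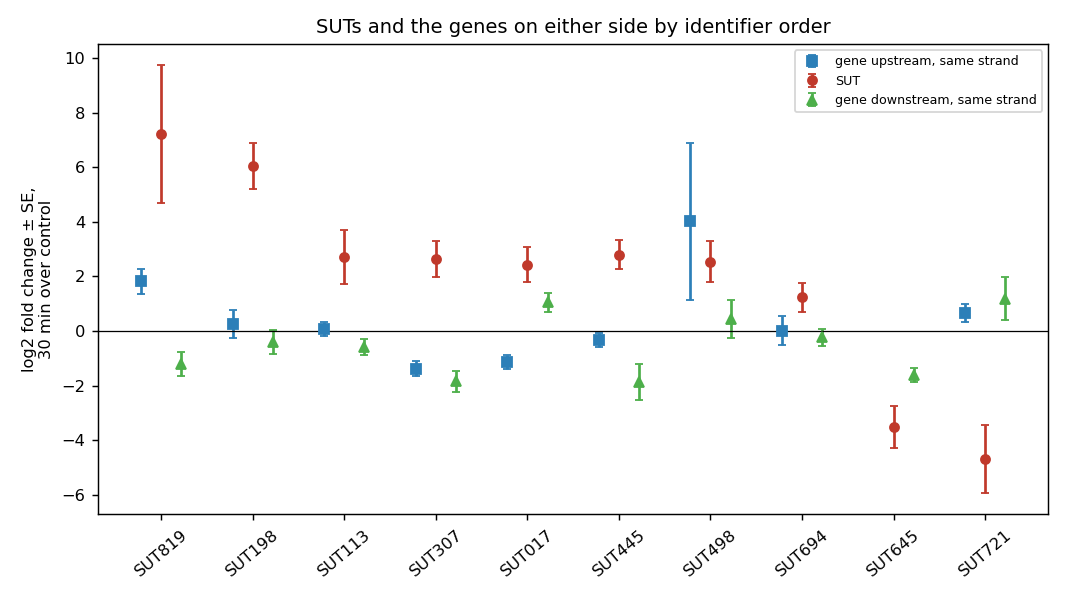
Log2 fold change ± SE at 30 min over control of the 10 named SUTs (circles) and of the gene upstream (squares) and downstream (triangles) on the same strand by identifier order, with no square drawn for SUT645. SUT198 stands at 6.05 between genes near 0, and SUT307 at 2.64 between genes that fell.

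Across 457 tested SUTs with a tested gene on both sides, the anchored over unanchored fold change of the SUT had a Spearman rho of 0.02 with that of the gene upstream and 0.06 with that of the gene downstream. These points share all 8 libraries and are given as a description. The flanking genes come from the order of the identifiers, which follows strand, chromosome and position without exception over 5029 neighbouring pairs of ORF features. That order placed 817 of 847 SUTs between a pair of ORFs. Where counting ignored strand or features overlap, reads of a SUT and its neighbour cannot be told apart.

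Genes whose products end, process or degrade noncoding RNA were read in the same libraries. Of 18 nuclear exosome and cofactor genes 1 rose and 1 fell in anchored over unanchored libraries, and for this and the other lists 1.89% of all features rose and 5.06% fell. TRF5, a poly(A) polymerase that marks nuclear RNA for the exosome, averaged 128 ± 45.5 CPM at 15 min and 157 ± 4.85 CPM at 30 min, against 34.2 ± 1.84 CPM at 0 min and 38.8 ± 12.7 CPM in the control (SD, n = 2 each). Its log2 fold change was 1.96 ± 0.26 (edgeR adjusted p = 0.000334). MTR3, a core exosome subunit, fell by 1.08 ± 0.31 log2 units (edgeR adjusted p = 0.0417).

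Of 7 genes of the Nrd1 complex and termination 1 rose and 1 fell. NRD1, whose product binds GTAG and ends short noncoding transcripts, averaged 338 ± 4.14 CPM at 15 min and 502 ± 25.2 CPM at 30 min, against 125 ± 24.5 CPM at 0 min and 144 ± 27.0 CPM in the control (SD, n = 2 each). Its log2 fold change was 1.62 ± 0.18 (edgeR adjusted p = 0.000281). NAB3, its partner, fell by 0.80 ± 0.18 log2 units (edgeR adjusted p = 0.0107). Of 8 poly(A) tail genes HRP1, a cleavage factor subunit, rose by 1.46 ± 0.17 (edgeR adjusted p = 0.000281) and none fell. NAB2 itself was at 0.01 ± 0.19 (edgeR adjusted p = 0.995). Of 14 cytoplasmic decay genes NAM7, a helicase of nonsense-mediated decay, fell by 0.63 ± 0.18 log2 units (edgeR adjusted p = 0.0465) and none rose. The medians of the 4 lists were -0.35 for the exosome, -0.01 for the Nrd1 complex, 0.26 for the poly(A) tail and -0.21 for cytoplasmic decay, against 0.00 for all tested features.

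In the anchor system RPL13A, which has a paralog that may share reads, fell by 0.77 ± 0.22 log2 units (edgeR adjusted p = 0.0381). FPR1, deleted in both strains, had 0 and 1 counts at 15 min and 29 and 0 counts at 30 min, against 3 and 31 counts at 0 min and 0 and 4 counts in control cells.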

How the data were processed

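Strand-specific libraries were made from total RNA after ribosomal RNA depletion, with most small RNAs removed, per the labels' protocols. The authors deposited whole-number read counts per feature with no normalisation, in 1 table of 7711 entries. GSNAP, bedtools 2.17.0, HTSeq 0.5.3 and build R64 are named in the submitters' processing notes. No source used here gives the counting rule or its strand setting. Per the labels fission yeast RNA was added, but the table held 0 spike-in features, so fold changes are relative to the bulk of the RNA. Dropping 29 exact repeats and 22 entries that shadow a gene left 7660 features.

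The test was edgeR 4.0.16 in R 4.3.3 (TMM factors, filterByExpr, glmQLFit with robust estimation, 2-sided quasi-likelihood test). All 8 libraries and 6191 features entered 1 model with a term for each group, with 4 residual degrees of freedom and a biological coefficient of variation of 0.611. A feature was called at a Benjamini-Hochberg adjusted p under 0.05 over all 6191. CPM are counts over TMM-scaled totals. The code was tested on simulated data. For 2 libraries against 2 the smallest exact permutation p is 0.333, so pairs of groups were compared with this model only. DESeq2 1.42.0 and limma 3.58.1 (voom), other scalings and filters, a replicate block and left-out libraries were alternatives.

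One 30 min library has the number 3 in the title but 2 in the description, and is called replicate 2 here. Differences between replicates 1 and 2 correlated from -0.26 to 0.11 between groups, so the numbers were not taken to pair samples. The SUTs and gene lists were chosen with earlier results of these data known, so no p is given for sums or counts over them, the share of counts included. Named are all SUTs called in a comparison with 10 calls or fewer, the 8 SUTs of highest mean level and the 4 of highest level per kilobase, those at the minimum of 10 counts, the genes beside called SUTs, the anchor genes, and the called members of the lists. The 4 sequences come from the RefSeq genome of build R64. One flanking gene is not reported here.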

Additional observations from a re-analysis of the deposited data

How the results depend on the processing

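None of the 10 called SUTs changed direction in the 20 alternatives of each comparison in which it was called. At 30 min over control, where 6 SUTs were called, scaling on mitochondrial genome features gave 1, no count filter 12 and DESeq2 24, and leaving out single libraries gave 3 to 19. At 30 min over 0 min, with 3 called, scaling on snoRNA features gave 5, mitochondrial scaling 0, no count filter 7, DESeq2 12 and leaving out the 3 libraries of low complexity 9, and leaving out single libraries 2 to 12. At 15 min over 0 min, with 0 called, total library size gave 1, snoRNA scaling 3, no count filter 3, DESeq2 3, limma-voom 2 and the replicate block 2, and leaving out single libraries 0 to 3. For the control over 0 min each alternative gave 0. In anchored over unanchored libraries, with 10 called, snoRNA scaling gave 16, mitochondrial scaling 3, no count filter 18, DESeq2 27, limma-voom 16 and leaving out the 3 libraries of low complexity 21, and leaving out single libraries 5 to 25. Where the filter or the libraries changed, the number of SUTs tested changed too, from 507 to between 518 and 664. For the other changes the cause was not tested. With 1 library left in a group, that library is assumed to vary like the others.

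The ratio of SUT shares, 1.52, was 1.40 to 1.61 without single libraries and 1.59 without the 3 libraries of low complexity. The alternative that keeps only SUTs overlapping no other feature was not run, since the table gives no coordinates. With the replicate number as a block, 8, 4, 2, 0 and 10 SUTs were called in the 5 comparisons in the order above, on numbers that were not taken to pair samples. Under that block SUT819 lost its call at 5.93. Of 664 SUTs 147 were unread in each of the 3 libraries of low complexity, and 157 were not tested.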

Other observations

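The 183 SUTs with fewer than 10 counts in all entered no comparison. Summed over them, the level was 0.585 and 6.84 CPM at 15 min and 13.4 and 0.774 CPM at 30 min, against 3.03 and 5.00 CPM at 0 min and 1.37 and 4.15 CPM in control cells. The highest value was that of 30 min replicate 1, and the lowest 3 were those of the libraries of low complexity.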
